A study of Mus musculus with 6 samples.

Results

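Il33 and 9 other genes of inducible inflammation were followed across 6 RNA sequencing libraries of C2C12 cells, an established line of mouse myoblasts. The set holds Il33, its receptor chains Il1rl1 and Il1rap, the IL-1 receptor gene Il1r1, the IL-6 family cytokines Il6, Il11 and Lif, the effectors Nos2 and Tnfrsf9, and Nfkbia. These 10 genes were picked by symbol from the 55414 identifiers of the count table, with results of the same siUsf2 and siControl contrast already known, Il33 among the leading ones. Their differences between the groups are therefore given as descriptions, without p-values, and nothing is read from how many of them passed a threshold. Of the 6 libraries, 3 came from cells transfected with siRNA-USF2 (siUsf2 1 to 3) and 3 from cells transfected with siRNA-NC, the negative control (siControl 1 to 3). All libraries share the cell line, its unmodified genotype (WT), growth medium with serum, and transfection by lipofectamine. The time from transfection to extraction and the number of siRNA sequences were not stated in the labels used. The labels do not say that replicates of a group came from separate cultures, so p-values measure only the spread between these libraries, which may be technical.

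IL-33 is a cytokine of the IL-1 family that is stored in the nucleus and released when cells are damaged. It signals through the receptor chain ST2, the product of Il1rl1, together with the shared accessory chain encoded by Il1rap, and the adaptor MyD88 passes the signal on to NF-κB. NF-κB induces many inflammatory genes, and one of its targets, Nfkbia, encodes the inhibitor IκBα that shuts it off again. IL-6, IL-11 and LIF signal through the common chain gp130, and in muscle IL-6 and LIF are known as cytokines of regenerating and exercised tissue. USF2, the factor targeted here, is a basic helix-loop-helix leucine zipper protein that binds E-box sequences.

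Total counts were 15817183 and 14932880 in siUsf2 1 and 2, 3414565 in the library labelled siUsf2 3, and 14790997 to 17715250 in siControl. Levels are given as CPM, counts scaled to a common library total, on which 1 count is worth 0.293 CPM in the library labelled siUsf2 3 and 0.0564 to 0.0676 CPM in the others. Usf2 itself had 17.1 and 15.3 CPM in siUsf2 1 and 2 but 30.8 CPM in the library labelled siUsf2 3, against 26.2, 31.2 and 23.0 CPM in siControl. The value of 30.8 CPM lies within the siControl range and goes against the label. Counts were found for 17404 genes there and for 23515 to 24501 genes in each other library, and of 16662 genes tested 39.6% lay above every siControl library in it and 42.1% below. It is therefore shown apart, and fold changes are given without it (the 5-library comparison) and with it (the 6-library comparison).

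The label of the cells was checked against marker genes. All 8 myoblast markers were detected, with Des, the muscle intermediate filament, at 1130, 1159 and 1584 CPM in siUsf2 and 1267 to 1607 CPM in siControl. Of 9 leukocyte and macrophage markers, Adgre1, Itgam and Tyrobp were at 0 in every library, and Ptprc was at 0 in all but siControl 2, where it had 0.437 CPM. The summed leukocyte and macrophage markers came to 21.4 to 24.0 CPM in siUsf2 and 20.9 to 26.2 CPM in siControl, most of it Cd14. Of 6 mast cell, basophil and eosinophil markers, Fcer1a and Mcpt4 were at 0 throughout, and Gata2 made up nearly all of the 31.6 to 32.9 CPM in siUsf2 and the 24.0 to 29.4 CPM in siControl. Of 6 T, B and NK cell markers, 4 were at 0 in every library, and the list summed to 0 to 0.586 CPM in siUsf2 and 0.125 to 0.339 CPM in siControl. The 6 endothelial markers summed to 4.89 to 5.06 CPM in siUsf2 and 3.99 to 4.85 CPM in siControl. The 6 fibroblast markers summed to 1054, 941 and 1185 CPM in siUsf2 1 to 3, against 788 to 843 CPM in siControl. The myoblast markers summed to 2451 and 2556 CPM in siUsf2 1 and 2, below the 3465 to 4244 CPM in siControl. In the library labelled siUsf2 3 they summed to 3544 CPM, within the siControl range. In the 5-library comparison the fibroblast markers Ly6a and Cd34 rose, by 0.47 ± 0.08 (SE, adjusted p = 2.42e-04 by edgeR) and 0.54 ± 0.09 on the log2 scale (SE, adjusted p = 5.18e-05 by edgeR), and the other 4 did not pass. Of the myoblast markers 5 fell, 1 rose and 2 did not pass there by edgeR at an adjusted p below 0.05, where 6.40% of all genes tested were called lower and 4.97% higher. The marker with the largest difference, picked after its values were seen, was Myog, a regulator of myoblast differentiation, with 282, 330 and 522 CPM in siUsf2, against 1036, 1156 and 918 CPM in siControl (log2 fold change -1.77 ± 0.10 SE, adjusted p = 6.44e-13 by edgeR). In the 6-library comparison the log2 fold changes of Ly6a, Cd34 and Myog were 0.47, 0.45 and -1.50, and 0 of 20 markers tested passed by edgeR (4 at an unadjusted p below 0.05, 3 called by DESeq2), where 0.0420% of all genes tested passed by edgeR, 10.5% were at an unadjusted p below 0.05 and 4.24% were called by DESeq2. The part of these shifts in the levels given below was not tested. In bulk RNA, fewer cells of a type and less RNA per cell cannot be told apart.

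Il33 (ENSMUSG00000024810, chromosome 19 at 29925114 to 29960718, GRCm38, plus strand) had 85.9 and 85.4 CPM in siUsf2 1 and 2 and 63.6 CPM (95% Poisson interval 55.4 to 72.6) in the library labelled siUsf2 3, against 30.8, 35.2 and 34.5 CPM in siControl. All 3 siUsf2 libraries lay above every siControl library, and siUsf2 1 and 2 differed from each other by less than 1 CPM. The mean in siUsf2 1 and 2 was 2.56 times the siControl mean, and the library labelled siUsf2 3 stood at 1.9 times it. The log2 fold change was 1.34 (SE 0.10) in the 5-library and 1.20 (SE 0.16) in the 6-library comparison.

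Of the receptor chains, Il1rap was higher in siUsf2, whereas Il1rl1 overlapped between the groups. Il1rap (ENSMUSG00000022514, chromosome 16 at 26581704 to 26730117, plus strand), the accessory chain shared by the IL-33, IL-1 and IL-36 receptors, had 26.6 and 22.8 CPM in siUsf2 1 and 2 and 20.8 CPM in the library labelled siUsf2 3, against 13.7, 14.6 and 16.9 CPM in siControl. Every siUsf2 library was above every siControl library, with a log2 fold change of 0.70 (SE 0.14) in the 5-library and 0.61 (SE 0.16) in the 6-library comparison. Il1rl1 (ENSMUSG00000026069, chromosome 1 at 40429570 to 40465415, plus strand), the IL-33-binding chain, was scarce, with 114, 94 and 17 counts in siUsf2 and 83, 97 and 122 counts in siControl. That is 7.21, 6.29 and 4.98 CPM in siUsf2, against 5.61, 6.06 and 6.89 CPM in siControl, and the groups overlapped. Its log2 fold change was 0.11 (SE 0.22) in the 5-library and -0.02 (SE 0.23) in the 6-library comparison. The gene makes both a membrane-bound and a soluble receptor, and a count per gene does not separate them. Il1r1 (ENSMUSG00000026072, chromosome 1 at 40225080 to 40317257, plus strand), the signalling receptor of IL-1, had 173, 174 and 142 CPM in siUsf2, against 163, 145 and 165 CPM in siControl. Here siUsf2 1 and 2 lay just above the siControl libraries and the library labelled siUsf2 3 below them all, and the log2 fold change was 0.13 (SE 0.09) and 0.02 (SE 0.13) in the 5-library and 6-library comparisons. The Poisson interval in the library labelled siUsf2 3, 129 to 155 CPM, held the 145 CPM of siControl 2.

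The IL-6 family cytokines showed smaller differences. Il6 (ENSMUSG00000025746, chromosome 5 at 30013114 to 30019981, plus strand) had 14.2, 15.6 and 15.5 CPM in siUsf2, against 18.1, 16.4 and 18.3 CPM in siControl. It was the member with all 3 siUsf2 libraries below every siControl library, by a small margin, and its log2 fold change was -0.26 both without the library labelled siUsf2 3 (SE 0.15) and with it (SE 0.12). The Poisson interval of Il6 in that library, 11.6 to 20.3 CPM, spanned all siControl values. Lif (ENSMUSG00000034394, chromosome 11 at 4257557 to 4272514, plus strand), the leukemia inhibitory factor, had 8.98 and 8.64 CPM in siUsf2 1 and 2 and 4.98 CPM in the library labelled siUsf2 3, against 7.91, 6.43 and 6.10 CPM in siControl. The siUsf2 libraries thus fell on both sides of siControl, with log2 fold changes of 0.36 (SE 0.20) and 0.14 (SE 0.29) in the 5-library and 6-library comparisons. With 17 counts in the library labelled siUsf2 3, the Poisson interval of Lif there, 2.9 to 7.97 CPM, spanned all siControl values. Il11 (ENSMUSG00000004371, chromosome 7 at 4772373 to 4782859, minus strand), a cytokine of stromal cells, was near the limit of detection, with 12, 3 and 2 counts in siUsf2 and 9, 9 and 8 counts in siControl. It did not pass the filter on low counts in either comparison. In CPM the Poisson intervals were 0.392 to 1.33, 0.0414 to 0.587 and 0.0709 to 2.12 in siUsf2, and 0.278 to 1.16, 0.257 to 1.07 and 0.195 to 0.890 in siControl, so that a difference was not detectable at this depth.

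Nos2 and Tnfrsf9 were both higher in every siUsf2 library than in any siControl library. Nos2 (ENSMUSG00000020826, chromosome 11 at 78920787 to 78960254, plus strand) encodes the inducible nitric oxide synthase. It had 11.0, 11.5 and 12.6 CPM in siUsf2, against 4.46, 3.44 and 4.35 CPM in siControl. The log2 fold change was 1.45 (SE 0.21) in the 5-library and 1.48 (SE 0.19) in the 6-library comparison. Tnfrsf9 (ENSMUSG00000028965, chromosome 4 at 150914562 to 150946102, plus strand) encodes 4-1BB, a costimulatory receptor best known from activated T cells. It had 84, 86 and 18 counts in siUsf2, against 20, 19 and 30 counts in siControl, which is 5.31, 5.76 and 5.27 CPM in siUsf2 and 1.35, 1.19 and 1.69 CPM in siControl. The log2 fold change was 1.95 (SE 0.31) in the 5-library and 1.91 (SE 0.24) in the 6-library comparison. For both genes the 3 siUsf2 libraries, the one labelled siUsf2 3 included, lay close together and apart from siControl. In that library Nos2 had 43 counts (Poisson interval 9.11 to 17 CPM) and Tnfrsf9 18 counts (3.12 to 8.33 CPM). Both intervals lay above siControl but were too wide to measure how close the siUsf2 libraries were. Of the T cell markers, Cd3e and Cd8a were at 0 in every siUsf2 library, and Cd4 had 0, 3 and 2 counts in siUsf2 and 0, 2 and 6 counts in siControl.

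Nfkbia (ENSMUSG00000021025, chromosome 12 at 55489410 to 55492647, minus strand) had 52.5, 49.7 and 65.0 CPM in siUsf2, against 48.7, 61.0 and 52.6 CPM in siControl. The groups overlapped, and the log2 fold change was -0.10 (SE 0.11) in the 5-library and 0.01 (SE 0.13) in the 6-library comparison. The gene that encodes the feedback inhibitor of NF-κB thus showed no separation between the groups. The library labelled siUsf2 3 lay above every siControl library, with a Poisson interval of 56.7 to 74.2 CPM that held the 61.0 CPM of siControl 2. Nos2 and Tnfrsf9 separated in the same libraries, but the set was chosen with this contrast known. The activity of NF-κB was not tested.

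**Figure D1:**
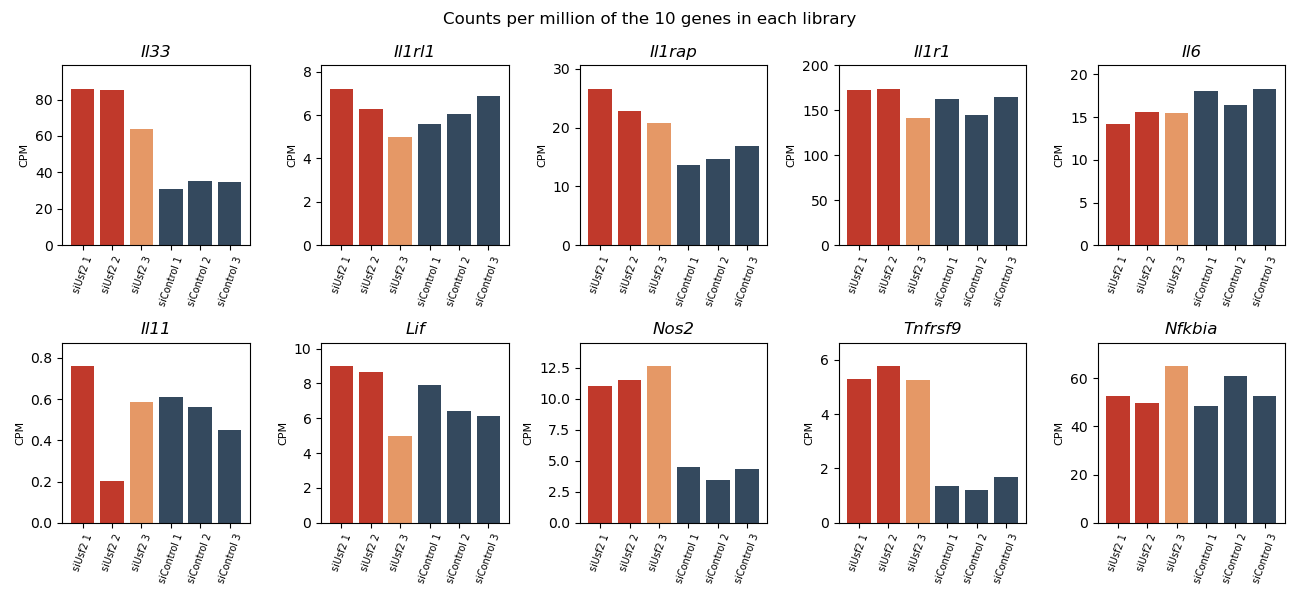
CPM in each library for the 10 genes, with siUsf2 1 and 2 in red, the library labelled siUsf2 3 in orange and siControl in dark blue. Each bar is 1 library and each panel has its own axis from 0. In Il33, Il1rap, Nos2 and Tnfrsf9 all 3 siUsf2 bars stand above all siControl bars, and in Il6 they stand slightly below.

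**Figure D2:**
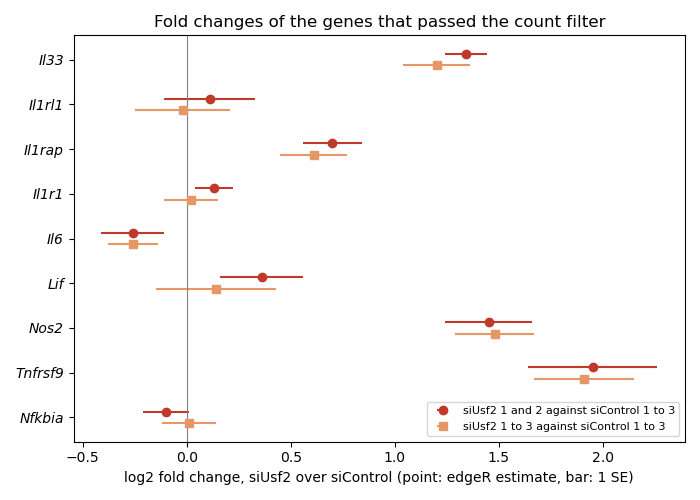
The log2 fold change of siUsf2 over siControl for the 9 genes that passed the filter on low counts, with bars of 1 SE, without the library labelled siUsf2 3 (circles) and with it (squares). Il33, Il1rap, Nos2 and Tnfrsf9 lie between 0.61 and 1.95, and the other 5 between -0.26 and 0.36.

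Over the set, all 3 siUsf2 libraries were above every siControl library in 4 of 10 genes and below in 1, where 11.4% and 11.2% of all genes tested did the same in the 6-library comparison. With siUsf2 1 and 2 alone, 6 genes were above every siControl library and 1 below, against 21.8% and 19.5% of all genes tested in the 5-library comparison. Of the 9 genes that passed the filter, the 5-library comparison called Il33, Il1rap, Nos2 and Tnfrsf9 higher and none lower, with 4.97% of 17217 genes called higher and 6.40% called lower by edgeR at an adjusted p below 0.05. The 6-library comparison called 0 of the 9 by edgeR (4 at an unadjusted p below 0.05, as were 10.5% of all genes tested). There edgeR called 0% of 16662 genes higher and 0.0420% lower. DESeq2 called Il33, Il1rap, Nos2 and Tnfrsf9 higher (4.24% of all genes tested called in either direction), and limma-voom called Il33, Nos2 and Tnfrsf9 (0.624%). With no filter on low counts, edgeR also called Il33, Nos2 and Tnfrsf9 higher, among 116 genes called of 29434. The median log2 fold change of the 9 was 0.36 in the 5-library and 0.14 in the 6-library comparison, against -0.01 over all genes tested in each. Nothing is read from these counts, since the set was chosen with this contrast known.

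Divided by exon length, the levels of different genes can be set side by side, though only roughly. The length used is the union of all annotated exons, not that of the transcripts expressed. In siUsf2 1 and 2, Nfkbia had 31.7 ± 1.22, Il33 29.7 ± 0.115 and Il1r1 27.3 ± 0.106 CPM per kilobase of exon (SD, n = 2). In siControl the same genes had 33.6 ± 3.90, 11.6 ± 0.827 and 24.8 ± 1.73 CPM per kilobase (SD, n = 3). Il33 thus stood between Nfkbia and Il1r1 in siUsf2 1 and 2, and below both in siControl. In the library labelled siUsf2 3, Il33 had 22.0 and Il1r1 22.3 CPM per kilobase. Il6 came next in every group, with 6.13 ± 0.420 CPM per kilobase in siUsf2 1 and 2 and 7.25 ± 0.425 in siControl.

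The scarcer genes stood in a different order in the groups. In siUsf2 1 and 2 the order was Nos2 at 2.55, Il1rap at 2.18, Tnfrsf9 at 2.03, Lif at 2.02, Il1rl1 at 0.979 and Il11 at 0.231 CPM per kilobase. In siControl it was Lif at 1.57, Il1rap at 1.33, Nos2 at 0.925, Il1rl1 at 0.897, Tnfrsf9 at 0.518 and Il11 at 0.260 CPM per kilobase. The ranges of Il1rap and Tnfrsf9 and of Tnfrsf9 and Lif overlapped in siUsf2 1 and 2, as did those of Lif and Il1rap and of Nos2 and Il1rl1 in siControl. The ligand Il33 exceeded its binding chain Il1rl1 per length in every library, with 29.8, 29.6 and 22.0 against 1.05, 0.913 and 0.722 CPM per kilobase in siUsf2, and 10.7, 12.2 and 12 against 0.814, 0.879 and 0.999 in siControl.

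**Figure D3:**
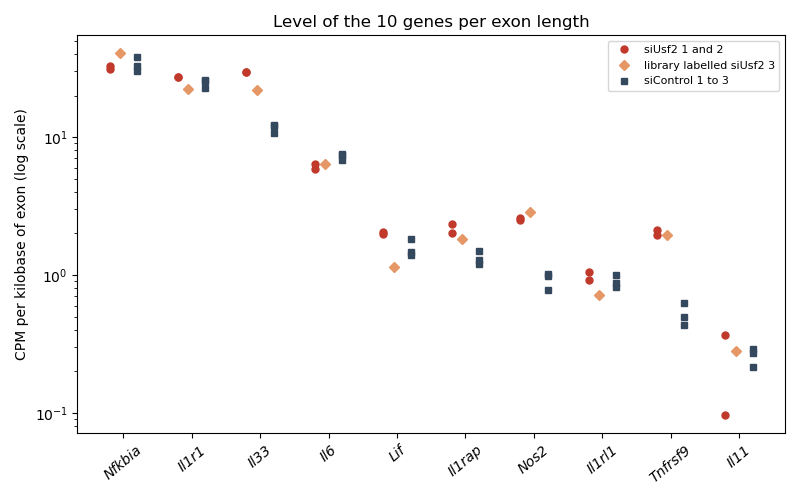
CPM per kilobase of exon on a log axis for the 10 genes, ordered by their mean in siControl, with 1 point per library. Il33 stands near 29.7 CPM per kilobase in siUsf2 1 and 2 and near 11.6 in siControl, and Nos2 and Tnfrsf9 also stand apart between the groups.

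The promoters of these genes were read from RefSeq sequences of GRCm38.p6 as the 250 bases before each annotated start. Of the 10 genes, 9 had an entry, with 14 windows in all, and Nos2 had none. The hexamer CACGTG, the E-box form that USF proteins bind, occurred on neither strand in any of the 14 windows, and occurred in 6.02% of 32851 windows of all genes. The looser form CANNTG occurred in 9 of the 14 windows and in 66.2% of all windows. The κB consensus, searched on both strands, occurred in 4 of the 14 windows and in 3.90% of all windows, with 1 window each of Il6, Nfkbia and Tnfrsf9 and of the second start of Il1r1. Windows of 1 gene are not independent, and a match or its absence in these letters says nothing on binding. The windows of Il33 and Tnfrsf9, which were higher in siUsf2, and of Il6 and Nfkbia, which lay below siControl or overlapped with it, are printed 5′ to 3′ on the gene's strand, with κB matches in capitals.
Il33, first start, chr19:29924863-29925112, plus strand: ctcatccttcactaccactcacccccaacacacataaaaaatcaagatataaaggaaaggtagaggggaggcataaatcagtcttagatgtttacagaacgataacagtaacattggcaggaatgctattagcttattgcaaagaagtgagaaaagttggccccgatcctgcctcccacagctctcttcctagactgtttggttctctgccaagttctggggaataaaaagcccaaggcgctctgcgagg
Tnfrsf9, second start, chr4:150927749-150927998, plus strand: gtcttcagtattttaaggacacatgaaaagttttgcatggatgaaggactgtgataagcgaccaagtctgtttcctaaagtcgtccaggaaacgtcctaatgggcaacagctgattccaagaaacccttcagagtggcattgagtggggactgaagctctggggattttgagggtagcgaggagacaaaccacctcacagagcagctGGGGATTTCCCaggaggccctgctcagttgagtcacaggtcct
Il6, chr5:30012864-30013113, plus strand: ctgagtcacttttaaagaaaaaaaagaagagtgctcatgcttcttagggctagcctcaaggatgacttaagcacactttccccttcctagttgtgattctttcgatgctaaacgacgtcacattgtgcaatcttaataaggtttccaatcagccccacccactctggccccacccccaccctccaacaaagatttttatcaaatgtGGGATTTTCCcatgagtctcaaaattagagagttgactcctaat
Nfkbia, chr12:55492648-55492897, minus strand: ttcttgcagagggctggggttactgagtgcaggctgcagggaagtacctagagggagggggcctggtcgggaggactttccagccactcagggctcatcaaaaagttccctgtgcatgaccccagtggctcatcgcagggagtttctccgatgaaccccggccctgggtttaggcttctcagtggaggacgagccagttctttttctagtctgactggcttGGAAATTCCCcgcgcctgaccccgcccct
The capitals in the Tnfrsf9 window hold 2 overlapping matches, starting 43 and 42 bases before the start. The match in Il6 starts 44 bases and that in Nfkbia 29 bases before the start. A κB match thus occurred at the second start of Tnfrsf9, which was higher in siUsf2, and not at its first. Il6, Nfkbia and Il1r1 also had a window with a match. Of the other genes higher in siUsf2, the 2 windows of Il33 and the window of Il1rap held none, and Nos2 had no entry. Whether a match goes with a higher level was not tested.

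The genes whose values were most like those of Il33 over the 6 libraries were found by the root mean square difference of log2 CPM, each centred on its siControl mean, among 9457 protein-coding genes. They were Ptgs2, the inducible cyclooxygenase, at 0.147, Plek, a substrate of protein kinase C, at 0.165, Lrrc15, a membrane protein of fibroblasts, at 0.179, Lmod1, a smooth muscle actin nucleator, at 0.194 and Psrc1, a spindle protein, at 0.240 on the log2 scale. Ptgs2 had 70.7, 59.7 and 57.4 CPM in siUsf2, against 26.0, 25.2 and 31.2 CPM in siControl. Plek had 21.1, 18.8 and 16.1 CPM in siUsf2, against 7.77, 6.75 and 7.11 CPM in siControl. Within the set, Nos2 was nearest to Il33 at 0.325, with 0.180% of the 9457 genes closer, followed by Il1rap at 0.426 and Tnfrsf9 at 0.498. The other members that passed the filter lay at 0.810 to 1.03, and Il6 was the farthest. These genes were found by their likeness in the same libraries, so no test is given.

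Other genes of the same pathways were followed in 6 lists that hold none of the 10 genes. The counts of each list stand beside 4.97% of all genes tested called higher and 6.40% called lower in the 5-library comparison, with a median log2 fold change of -0.01, and nothing particular to a list is read from them. Of 17 genes for ligands, receptors and decoys of the IL-1 family, 5 were at 0 in every library and 7 passed the filter. In the 5-library comparison 2 of the 7 rose and 5 did not pass by edgeR, and their median log2 fold change was 0.47. Il1rn, the natural antagonist of the IL-1 receptor, had 11.3, 12.7 and 7.03 CPM in siUsf2, against 4.80, 5.75 and 5.81 CPM in siControl, a log2 difference of 1.12 ± 0.20 (SE, adjusted p = 1.81e-04 by edgeR). Il18rap, a chain of the IL-18 receptor, had 24.3, 23.8 and 20.2 CPM in siUsf2, against 15.3, 17.7 and 18.3 CPM in siControl, a log2 difference of 0.47 ± 0.14 (SE, adjusted p = 0.0215 by edgeR). The Il18rap call ended without siUsf2 1 (adjusted p = 0.143), siUsf2 2 (0.118), siControl 1 (0.122) or siControl 2 (0.0516). Il1a, another alarmin of the family, had 2.66, 3.75 and 1.46 CPM in siUsf2 and 0.406, 1.44 and 2.43 CPM in siControl and did not pass (log2 fold change 1.12 ± 0.45 SE, adjusted p = 0.119 by edgeR). Il1f9, which encodes the cytokine IL-36γ, had 13, 10 and 5 counts in siUsf2 and 3, 8 and 4 counts in siControl, which is 0.822, 0.670 and 1.46 CPM in siUsf2 and 0.203, 0.500 and 0.226 CPM in siControl, and did not pass (log2 fold change 1.24 ± 0.71 SE, adjusted p = 0.282 by edgeR). In the 6-library comparison the log2 fold changes of Il1rn, Il18rap, Il1a and Il1f9 were 0.91, 0.38, 0.92 and 1.44, and none passed (adjusted p = 0.338, 0.453, 0.709 and 0.426 by edgeR).

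Of 23 genes that carry the signal from MyD88 to the IκB kinases, 2 rose, 1 fell and 20 did not pass in the 5-library comparison by edgeR, and their median log2 fold change was -0.07. These 3 of 23 stand beside 11.4% of all genes tested called in either direction. Ikbkb, a catalytic subunit of the IκB kinase, had 66.3, 61.1 and 66.2 CPM in siUsf2, against 53.5, 52.2 and 48.4 CPM in siControl (log2 fold change 0.30 ± 0.10 SE, adjusted p = 0.0452 by edgeR). Map3k8, a kinase upstream of ERK, had 12, 9.84 and 9.96 CPM in siUsf2, against 8.92, 6.81 and 5.48 CPM in siControl (log2 fold change 0.62 ± 0.21 SE, adjusted p = 0.0468 by edgeR). Ubb, a ubiquitin gene, had 630, 672 and 530 CPM in siUsf2 and 765, 872 and 718 CPM in siControl (log2 fold change -0.28 ± 0.09 SE, adjusted p = 0.0406 by edgeR), and whether its count holds reads of other ubiquitin genes was not tested. Each of the 3 calls ended without siUsf2 1 (adjusted p = 0.345 to 0.405), siUsf2 2 (0.0513 to 0.131) or siControl 2 (0.0897 to 0.158), those of Ikbkb and Ubb also without siControl 1 (0.0891 and 0.105) and that of Map3k8 without siControl 3 (0.0884). Other settings also ended the calls of Ikbkb (DESeq2, limma-voom, no filter and no robust estimation, adjusted p = 0.0510 to 0.0633), Map3k8 (DESeq2, no robust estimation and limma with a pseudocount of 0.1, 0.0515 to 0.0795) and Ubb (library size alone, upper-quartile normalization and limma on log2 CPM, 0.0536 to 0.0732). Irak1, a kinase recruited by MyD88, did not pass (log2 fold change -0.23 ± 0.09 SE, adjusted p = 0.104 by edgeR). In the 6-library comparison Ikbkb, Map3k8, Ubb and Irak1 had log2 fold changes of 0.30, 0.56, -0.39 and -0.21, and none passed (adjusted p = 0.277, 0.517, 0.404 and 0.506 by edgeR).

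Of 29 genes for NF-κB subunits, inhibitors and feedback targets, 24 passed the filter, and 1 rose, 1 fell and 22 did not pass in the 5-library comparison (4.97% and 6.40% over all genes tested), and their median log2 fold change was 0.02. Nfkbiz, which encodes the nuclear inhibitor family member IκBζ, had 126, 122 and 115 CPM in siUsf2, against 95.8, 95.7 and 99.6 CPM in siControl (log2 fold change 0.34 ± 0.09 SE, adjusted p = 0.00928 by edgeR). Sod2, the mitochondrial superoxide dismutase, had 74.9, 82.2 and 72.6 CPM in siUsf2, against 94.7, 102 and 98.1 CPM in siControl (log2 fold change -0.34 ± 0.09 SE, adjusted p = 0.0155 by edgeR). The Nfkbiz call ended without siUsf2 1 (adjusted p = 0.140), siUsf2 2 (0.0811) or siControl 1 (0.0560), and the Sod2 call without siUsf2 1 (0.334) or siControl 2 (0.0534). Malt1, a paracaspase, and Zc3h12a, an RNase that degrades cytokine transcripts, did not pass, at log2 fold changes of 0.40 ± 0.14 (SE, adjusted p = 0.0656 by edgeR) and -0.25 ± 0.10 (SE, adjusted p = 0.105 by edgeR). The 6-library log2 fold changes of Nfkbiz, Sod2, Malt1 and Zc3h12a were 0.29, -0.39, 0.30 and -0.19, and none passed (adjusted p = 0.300, 0.223, 0.587 and 0.578 by edgeR).

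Among 22 genes of the IL-6 family, its receptors and the STAT3 arm, 18 passed the filter, and 3 rose and 15 did not pass in the 5-library comparison (4.97% of all genes tested rose), and their median log2 fold change was -0.03. The 3 were receptor chains and a kinase. Osmr, the oncostatin M receptor, had 310, 309 and 230 CPM in siUsf2, against 221, 193 and 247 CPM in siControl (log2 fold change 0.48 ± 0.09 SE, adjusted p = 8.5e-04 by edgeR), with the library labelled siUsf2 3 inside the siControl range. Cntfr, the binding chain for ciliary neurotrophic factor, had 3.92, 2.88 and 3.81 CPM in siUsf2, against 1.42, 1.12 and 0.226 CPM in siControl (log2 fold change 1.89 ± 0.46 SE, adjusted p = 0.00767 by edgeR), a call lost without siUsf2 1 (adjusted p = 0.0635). Jak2, a kinase of cytokine receptors, had 95.0, 105 and 82.6 CPM in siUsf2, against 67.8, 75.8 and 88.8 CPM in siControl (log2 fold change 0.35 ± 0.10 SE, adjusted p = 0.0256 by edgeR), a call lost without siUsf2 2 (adjusted p = 0.267), siControl 1 (0.177) or siControl 2 (0.0881). Ctf1, the cytokine cardiotrophin 1, did not pass (log2 fold change -0.48 ± 0.18 SE, adjusted p = 0.0783 by edgeR). With all 6 libraries Osmr, Cntfr, Jak2 and Ctf1 had log2 fold changes of 0.33, 1.91, 0.25 and -0.54, and none passed (adjusted p = 0.591, 0.347, 0.654 and 0.331 by edgeR).

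Of 18 genes of nitric oxide synthesis and arginine supply, 13 passed the filter, and 1 rose, 3 fell and 9 did not pass in the 5-library comparison (4.97% and 6.40% over all genes tested), and their median log2 fold change was -0.13. Beside the higher Nos2, the neuronal synthase gene Nos1 had 4.36, 3.48 and 3.81 CPM in siUsf2, against 7.03, 5.87 and 8.64 CPM in siControl (log2 fold change -0.89 ± 0.24 SE, adjusted p = 0.0162 by edgeR). Slc7a1, a transporter that imports arginine, had 67.4, 77.7 and 68.8 CPM in siUsf2, against 103, 99.7 and 106 CPM in siControl (log2 fold change -0.52 ± 0.10 SE, adjusted p = 3.33e-04 by edgeR). Ddah1, which breaks down methylarginine inhibitors of the synthases, rose to 60.9, 53.2 and 45.1 CPM in siUsf2, against 34.8, 36.1 and 41.2 CPM in siControl (log2 fold change 0.60 ± 0.11 SE, adjusted p = 2.56e-04 by edgeR). Qdpr, which recycles biopterin, had 5.31 and 5.09 CPM in siUsf2 1 and 2 but 17.3 CPM in the library labelled siUsf2 3, against 7.10, 8.87 and 8.35 CPM in siControl (log2 fold change -0.65 ± 0.22 SE, adjusted p = 0.0459 by edgeR). With that library its log2 fold change was 0.08 ± 0.51 (SE, adjusted p = 0.964 by edgeR), and those of Nos1, Slc7a1 and Ddah1 were -0.91, -0.56 and 0.48, none of which passed (adjusted p = 0.270, 0.133 and 0.357 by edgeR). The Nos1 call ended without siUsf2 2 (adjusted p = 0.138) or siControl 1 (0.0560), the Slc7a1 call without siUsf2 1 (0.0649), and the Qdpr call without any 1 of the 5 libraries (0.204 without siUsf2 1, 0.190 without siUsf2 2, 0.0660 without siControl 1, 0.150 without siControl 2 and 0.0501 without siControl 3), and under 4 other settings (0.0528 to 0.0754 with library size alone, upper-quartile normalization, limma-voom or DESeq2).

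Of 42 genes of the TNF receptor superfamily and its ligands, 23 passed the filter, and 1 rose, 2 fell and 20 did not pass in the 5-library comparison (4.97% and 6.40% over all genes tested), and their median log2 fold change was -0.05. The gene that rose was Tnfsf9, which encodes the ligand of the Tnfrsf9 product, with 9.17, 10.4 and 9.37 CPM in siUsf2, against 5.41, 5.69 and 5.14 CPM in siControl (log2 fold change 0.84 ± 0.20 SE, adjusted p = 0.00593 by edgeR). All 3 siUsf2 libraries were above every siControl library for both the receptor and the ligand gene. The same held for 11.4% of all genes tested in the 6-library comparison. Tnfrsf9 was chosen with this contrast known and Tnfsf9 was named because it was called, so nothing is read from the pair. The Tnfsf9 call ended without siUsf2 2, at a log2 fold change of 0.73. Tnfrsf12a, the receptor of TWEAK, had 54.1 and 55.7 CPM in siUsf2 1 and 2 but 110 CPM in the library labelled siUsf2 3, against 78.1, 80.8 and 60.2 CPM in siControl (log2 fold change -0.42 ± 0.11 SE, adjusted p = 0.0119 by edgeR). With the library labelled siUsf2 3, which lay above every siControl library, its log2 fold change was -0.04 ± 0.30 (SE, adjusted p = 0.967 by edgeR). Traf3, an adaptor that restrains non-canonical NF-κB signalling, had 52.7, 60.2 and 58.3 CPM in siUsf2, against 73.1, 69.6 and 72.3 CPM in siControl (log2 fold change -0.36 ± 0.10 SE, adjusted p = 0.0157 by edgeR). The Tnfrsf12a call ended without siUsf2 1 (adjusted p = 0.104), siControl 1 (0.0933) or siControl 2 (0.0812), and the Traf3 call without siUsf2 1 (0.376) or siControl 1 (0.0769). Ltbr, the lymphotoxin beta receptor, had 71.1 and 72.1 CPM in siUsf2 1 and 2 but 110 CPM in the library labelled siUsf2 3, against 88.7, 94.7 and 75.2 CPM in siControl, and passed neither without that library (log2 fold change -0.28 ± 0.10 SE, adjusted p = 0.0652 by edgeR) nor with it (-0.07 ± 0.19 SE, adjusted p = 0.913 by edgeR). The 6-library log2 fold changes of Tnfsf9 and Traf3 were 0.80 and -0.36, and neither passed (adjusted p = 0.193 and 0.225 by edgeR). In the 6-library comparison 0 of 107 genes tested in the 6 lists passed by edgeR, with 18 at an unadjusted p below 0.05, and DESeq2 called 8 and limma-voom 0. Over all 16662 genes tested, 0.0420% passed by edgeR, 10.5% were at an unadjusted p below 0.05, DESeq2 called 4.24% and limma-voom 0.624%.

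**Figure D4:**
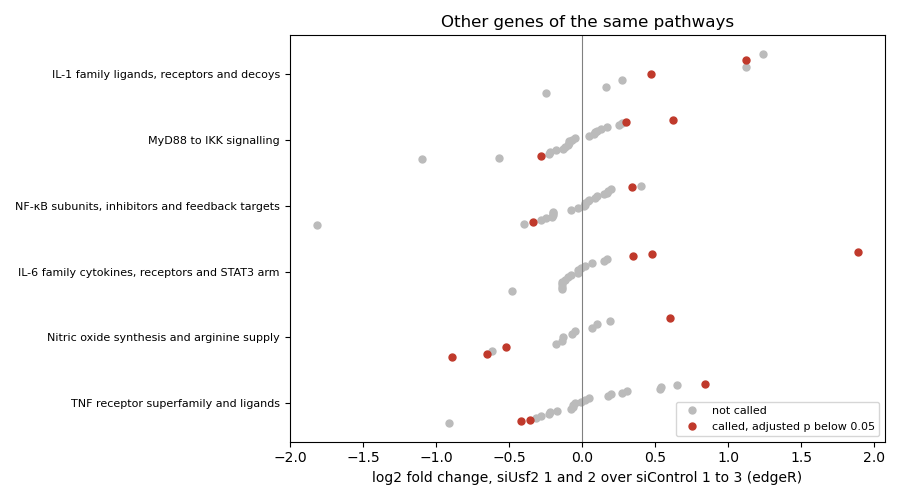
The log2 fold change of siUsf2 1 and 2 over siControl 1 to 3 for every gene of the 6 lists that passed the filter, with 1 point per gene and genes called at an adjusted p below 0.05 in red. In each list most points are grey and points lie on both sides of 0. The called genes lie above 0 in the IL-1 and IL-6 family lists and on both sides in the other 4.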

How the data were processed

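RNA sequencing counts of 6 C2C12 libraries were used. The authors deposited a table of raw read counts per Ensembl identifier and a second table named for TPM whose values are CPM: each deposited CPM equals the count scaled to its column total, with no gene length, and 100% of values gave back whole reads equal to the counts (tolerance 1e-06). Per the submitters' processing notes, mm10 is the genome build and FastQC, Trimmomatic, featureCounts, HISAT2 and DESeq2 are the listed tools, and no version, role, annotation or strand setting is stated there. Symbols, coordinates and exon lengths (union of exons) came from GENCODE M21 on GRCm38, which matched 52133 of 55414 identifiers. Il36a, Il36b, Il36g and Il36rn were matched by synonyms in RefSeq, and Il37 had no match.

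The groups were compared on the whole table with edgeR 4.0.16 in R 4.3.3 (filterByExpr, TMM, robust quasi-likelihood test, two-sided, Benjamini-Hochberg adjustment over all genes tested, called at an adjusted p below 0.05). SE is the log2 fold change over the square root of F. Alternatives used DESeq2 1.42.0 and limma 3.58.1. The script was tested on simulated data. Members, lists and the separate treatment of the library labelled siUsf2 3 were chosen with earlier results of these data known. Named list genes are the 4 with the smallest p in each list and every called gene. The 9457 genes compared with Il33 had a mean log2 CPM of at least 3 (prior count 2), which members did not have to reach. Poisson intervals cover counting error only, and 0 counts allow up to 3 counts: 0.169 to 0.203 CPM, or 0.879 CPM in the library labelled siUsf2 3. Replicate pairs differed by more than counting noise, which does not show that they came from separate cultures. Each library was counted as 1 sample. Chi-square per degree of freedom was 4.38 to 13, and 103 for pairs with the library labelled siUsf2 3. Il1rap shares exon bases with the antisense gene Gm20319, which had at most 2 counts. By transcript alignment no other gene matched a member at 90% identity over 150 bases.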

Additional observations from a re-analysis of the deposited data

How the results depend on the processing

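Over the alternatives and each library left out, the 5-library log2 fold changes of members, given as descriptions, spanned 1.28 to 1.38 for Il33, 0.60 to 0.80 for Il1rap, 1.28 to 1.51 for Nos2 and 1.44 to 2.12 for Tnfrsf9. Of 153 fold changes of members recomputed in the 6-library comparison, 152 moved by no more than 1 SE, as did 143 of 144 in the 5-library one, and the exceptions were Tnfrsf9 with limma at a pseudocount of 1 (1.42 and 1.44). The number of genes called with 6 libraries, 7, depended on the setting: 4 with RLE, 3 with library size alone, 0 with upper-quartile normalization, 116 with no filter, 706 with DESeq2, 104 with limma-voom, 0 with the replicate block, 3 with limma at either pseudocount and 0 at an adjusted p below 0.01, and 0 without any 1 of the other libraries but 1957 without the one labelled siUsf2 3. With 5 libraries 1957 genes were called, 3989 with the replicate block, 938 at an adjusted p below 0.01, and from 868 (without siUsf2 1) to 3560 (without siControl 3) when 1 library was left out. Upper-quartile normalization turned the 5-library split to 1124 higher and 900 lower, 55.5% higher against 43.7%. Correlations of same-numbered deviations from the group means were -0.0739 to -0.00488. They cannot decide whether the replicate numbers pair the samples. The siUsf2 mean includes the library labelled siUsf2 3, which stands apart and shifts every siUsf2 deviation. The block ended the 5-library edgeR call of Map3k8 (adjusted p = 0.0830). It ended no other call among the named genes of the 6 lists, the Il33-like genes and Usf2. Calls of marker genes were not followed over these settings, and markers are not among the named non-member genes counted below. The 6-library fold change of Qdpr, 0.08, ranged from -0.65 (without the library labelled siUsf2 3) to 0.38 with 1 library left out. Of 477 recomputed fold changes of named non-member genes in the 5-library comparison, 68 changed side of the threshold and 0 turned with a call. The causes were not tested. Depth limits Il11 and, in the library labelled siUsf2 3, the detection of genes of under about 1 CPM. Counting error in that library is wide at higher levels too. There 17 counts of Lif, at 4.98 CPM, had a Poisson interval of 2.9 to 7.97 CPM. Left with 1 siUsf2 library, a fit assumes that it varies like siControl.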
